A study of Mus musculus with 6 samples.

Results

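Transcripts of 35 complement genes were examined in mouse liver at postnatal day 10. The genes cover the classical, lectin, alternative and terminal pathways, the regulators that restrain them and the receptors that read their products. They were taken by symbol from a table of 24489 gene entries, and all 35 had an entry. Of these, 33 passed the filter on low counts and were tested, and Cfd and C7 did not pass it.

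Polyadenylated RNA came from a liver lobe of untreated pups on a C3H/C57bl6J background. Of 6 libraries, 3 were Jag1+/+, with both copies of Jag1 intact, and 3 were Jag1Ndr/Ndr, homozygous for the Nodder (Ndr) missense allele of the Notch ligand gene Jag1. The Ndr allele is carried in every cell, and homozygotes are studied as a mouse counterpart of Alagille syndrome, a disease with too few bile ducts and poor bile drainage. The labels do not say whether each library came from a separate animal, so the p-values measure the spread between these libraries, part of which may be technical.

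Complement is a cascade of plasma proteins, most of them made by hepatocytes, that marks microbes and damaged cells. In the classical pathway C1q bound to antibody activates the proteases C1r and C1s, and in the lectin pathway collectins and ficolins bound to sugars activate the MASP proteases. Both cut C4 and C2, the alternative pathway amplifies through factor B, and all meet at C3, from which the terminal components C5 to C9 assemble a pore in the target membrane. C1q, properdin and the anaphylatoxin receptors come largely from macrophages and other myeloid cells, so that in bulk liver they also follow how many such cells are present. Fewer cells of a type and less RNA per cell cannot be told apart in these data.

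Reads on gene entries ranged from 12992592 to 59653111 per library. A count of 0 allows up to 0.266 CPM (counts per 1e+06 reads, here scaled by TMM, a correction for library composition) in the shallowest library and 0.0421 CPM in the deepest, for 3 reads and counting error only. Xist reads placed Jag1+/+ replicate 1 and Jag1Ndr/Ndr replicates 2 and 3 as female, so sex was unevenly spread over the genotypes. Albumin (Alb), the main hepatocyte transcript, measured 176061, 180201 and 176826 CPM in the Jag1+/+ libraries and 150001, 86174 and 102119 CPM in the Jag1Ndr/Ndr libraries. Markers of hepatocytes were thus abundant in every library, as the tissue label says. Genotypes were compared by the quasi-likelihood test of edgeR over 13819 genes, and a gene was called where its p, adjusted by the Benjamini-Hochberg method, was under 0.05.

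Complement genes did not move as a block between the genotypes. The regulator clusterin (Clu) and the C5a receptor C5ar1 were higher in Jag1Ndr/Ndr livers. The C8 gamma chain (C8g), the mannose-binding lectin Mbl1 and the lectin pathway protease Masp2 were lower. The call thus fell on 5 of the 33 tested members, or 15.2%, against a background of 7.63% of all genes tested. In the upward direction it fell on 2 members, against 4.73% of all genes, and in the downward direction on 3, against 2.9%. The median log2 fold change of the tested members was 0.14, beside 0.00 over all genes tested. The 3 libraries of one genotype lay wholly above or below the 3 of the other for 15 of the 33 members, or 45.5%, a property that 29% of all genes tested had. In 10 of these the Jag1Ndr/Ndr libraries were the higher, against 14.8% of all genes, and in 5 the lower, against 14.2%.

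The calls were sensitive to the libraries used, over all genes as among the members. Without any 1 of the Jag1+/+ libraries only C8g remained called, while C8g passed in all 15 alternative fits. Calls over all genes went from 1054 to 342, 282 and 319 without Jag1+/+ replicates 1, 2 and 3. These were out of 14301, 13706 and 13716 genes tested. DESeq2 called 7 members higher and 3 lower, adding C4bp, C6, Cfp, Itgam and Itgb2 to the 5. Over all genes it called 1890 of 13819.

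**Figure D1:**
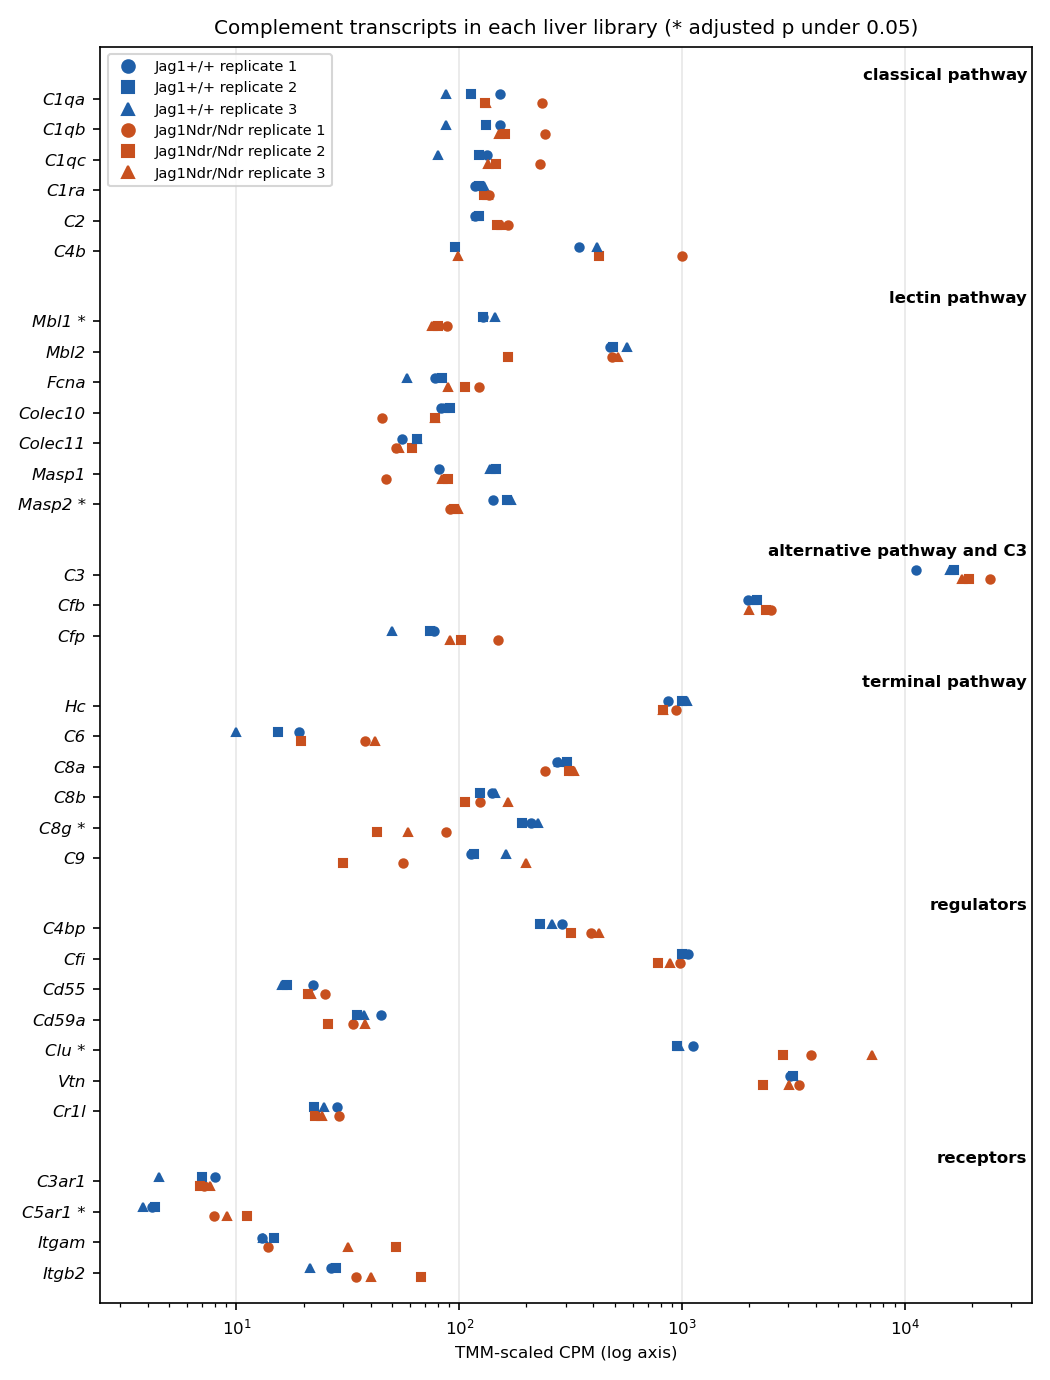
Level of each tested complement gene in every library, as TMM-scaled CPM on a log axis, grouped by role. Blue marks are the 3 Jag1+/+ libraries and orange marks the 3 Jag1Ndr/Ndr libraries. The colours are apart for 15 of the 33 genes, the 5 starred genes among them, and C4b and C9 spread widely within a genotype.

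**Figure D2:**
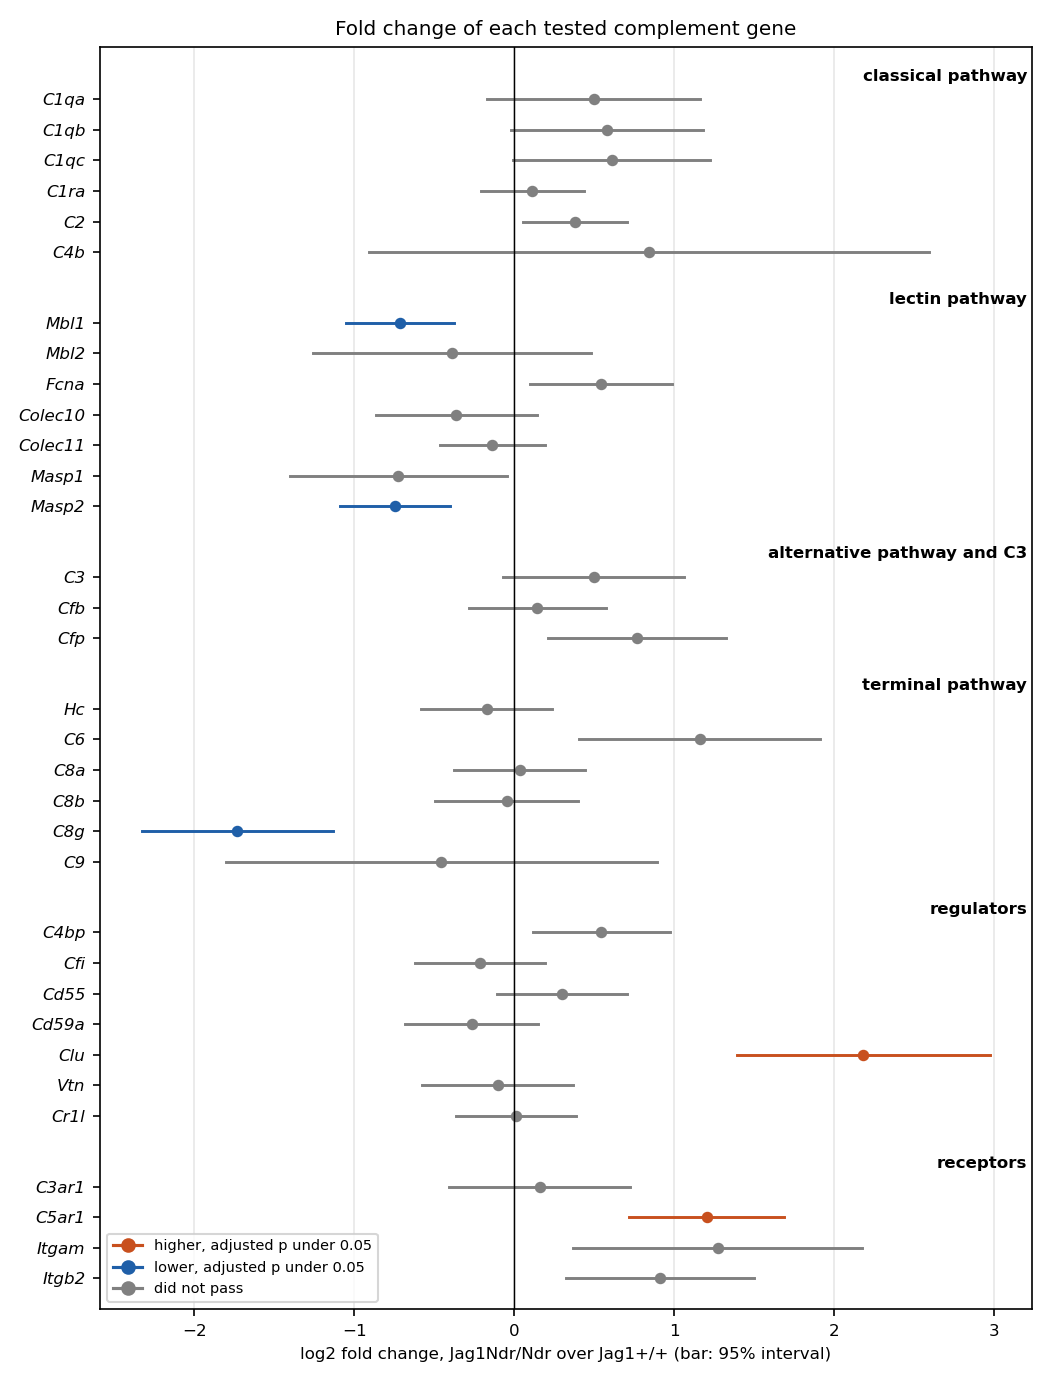
Log2 fold change (Jag1Ndr/Ndr over Jag1+/+) of each tested member, with its 95% interval from the edgeR fit, grouped by role. Clu and C5ar1 lie to the right, and C8g, Masp2 and Mbl1 to the left, while the interval of C4b runs from -0.91 to 2.59.

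Levels of different members were compared per length. The deposited RPKM had been multiplied by each library's TMM factor, where TMM scaling divides by it, so that fold changes in RPKM lie higher than those in CPM, by a median of 0.21 to 0.22 over all genes on the log2 scale. Calls and signs read from RPKM below carry that shift, and the order of genes within a library does not. The deposited RPKM (reads scaled to transcript length and library depth) in Jag1+/+ livers was highest for C3, the common substrate of all pathways, at 2649 ± 518 (SD, n = 3). Next came vitronectin (Vtn), a plasma inhibitor of the membrane pore, at 1671 ± 21.3, factor B (Cfb) at 710.2 ± 29.3 and Clu at 525 ± 53.8 RPKM. Factor I (Cfi, 462 ± 18.5 RPKM) and Mbl2 (446 ± 38.2 RPKM) followed, and their library ranges overlapped. Of the 34 pairs of neighbours in this order, 21 overlapped in their library ranges. At the low end stood the receptors C5ar1 (1.57 ± 0.108 RPKM) and C3ar1 (1.42 ± 0.402 RPKM). Cfd and C7 were the only members with a mean below 1 RPKM. In Jag1Ndr/Ndr livers Clu held the 2nd place in this order, after C3, and C8g went from the 7th to the 18th. Together the members took 2.22%, 2.65% and 2.63% of all reads in Jag1+/+ replicates 1, 2 and 3, and 3.45%, 3.75% and 3.78% in Jag1Ndr/Ndr replicates 1, 2 and 3. Between 49.5% and 61.5% of those reads were from C3.

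C3 and the proteins of the alternative pathway had positive fold changes and none passed. C3 measured 11151, 16522 and 15882 CPM in the Jag1+/+ libraries and 23995, 19333 and 18101 CPM in the Jag1Ndr/Ndr libraries. The genotypes did not overlap, but the log2 fold change of 0.50 ± 0.25 (SE) did not pass (edgeR adjusted p = 0.287), with a 95% interval from -0.07 to 1.06. Cfb, whose protein forms the alternative C3 convertase, measured 2079 ± 97.8 and 2295 ± 265 CPM (mean ± SD, n = 3 per genotype), with a log2 fold change of 0.14 ± 0.19 that missed the threshold (edgeR adjusted p = 0.723). Cfp encodes properdin, which stabilises that convertase. It measured 77.1, 73.9 and 49.9 CPM in Jag1+/+ and 149, 102 and 90.9 CPM in Jag1Ndr/Ndr libraries, again without overlap (log2 fold change 0.77 ± 0.24, edgeR adjusted p = 0.0994). Cfp was called by DESeq2 (adjusted p = 0.0328). Factor D (Cfd), the protease that activates factor B and is best known from fat cells, had at most 1 read in any of the 6 libraries, which gives no fold change.

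In the classical pathway 0 of 6 members were called (1 at an unadjusted p under 0.05, and 0 by DESeq2), and all 6 log2 fold changes were positive, with a median of 0.54. Over all genes tested 7.63% were called, and 6983 of 13819 log2 fold changes were positive. The C1q chains C1qa, C1qb and C1qc, which build the recognition molecule, had log2 fold changes of 0.49 ± 0.29, 0.58 ± 0.26 and 0.61 ± 0.27. C1qb measured 151, 132 and 87.4 CPM in Jag1+/+ and 242, 160.3 and 151 CPM in Jag1Ndr/Ndr libraries. The lowest Jag1Ndr/Ndr library therefore stood next to the highest Jag1+/+ library. Within a library C1qc stood at 0.915 ± 0.0283 of the C1qb RPKM in Jag1+/+ and 0.925 ± 0.0315 in Jag1Ndr/Ndr, and C1qa, with a wider spread, at 0.938 ± 0.0837 and 0.869 ± 0.0766. C2, the protease part of the classical C3 convertase, was steady within genotypes, at 118, 123 and 119 CPM against 165, 148 and 155 CPM. The genotypes of C2 did not overlap, yet its log2 fold change of 0.38 ± 0.14 did not pass (edgeR adjusted p = 0.158). C1ra, the first protease of the pathway, measured 123 ± 6.08 and 133 ± 3.72 CPM, a log2 fold change of 0.11 with a 95% interval from -0.21 to 0.43. C1ra has a close copy, C1rb, with which it can share reads.

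C4b, the gene of complement C4, varied more between libraries than between genotypes. It measured 343, 95.7 and 413 CPM in Jag1+/+ replicates 1, 2 and 3, and 1001, 425 and 98.2 CPM in Jag1Ndr/Ndr replicates 1, 2 and 3. One library of each genotype thus stood near 100 CPM, and the log2 fold change of 0.84 ± 0.76 (edgeR adjusted p = 0.594) became -0.13 without Jag1Ndr/Ndr replicate 1. C4b lies in the H-2 region (GRCm38 chromosome 17, positions 34728139 to 34743902), and mouse strains are known to differ in C4 level with their H-2 haplotype. H2-Ea-ps (chromosome 17, positions 34341952 to 34344645), an H-2 gene that C57BL/6 mice do not express, was looked at after the values of C4b were seen. It measured 4.57, 9.41 and 2.20 CPM in Jag1+/+ and 0.0886, 4.04 and 7.95 CPM in Jag1Ndr/Ndr replicates 1, 2 and 3. The pair of libraries lowest in C4b were the highest in H2-Ea-ps, and the library highest in C4b had 1 read of H2-Ea-ps. Whether haplotype has a part in the C4b values was not tested. C4a, a close paralog that can share reads with C4b, stayed between 1.39 and 2.37 CPM in all 6 libraries.

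**Figure D3:**
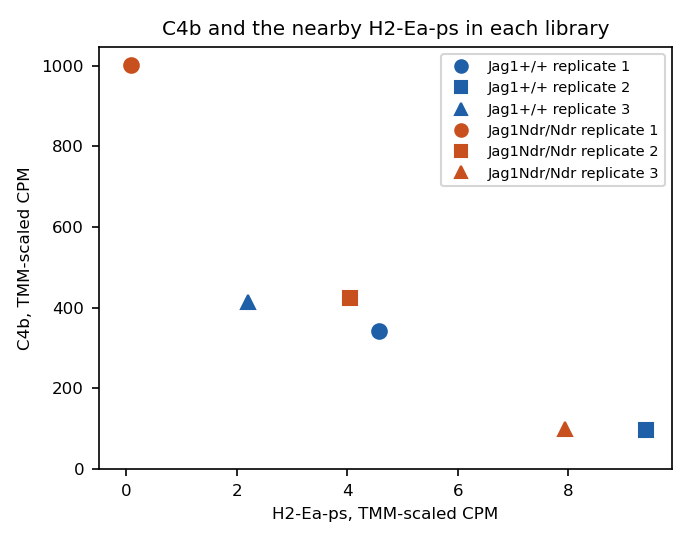
C4b against the nearby H2-Ea-ps in each of the 6 libraries, both as TMM-scaled CPM on linear axes, with Jag1+/+ in blue and Jag1Ndr/Ndr in orange. Jag1+/+ replicate 2 and Jag1Ndr/Ndr replicate 3 lie together at the lower right, and Jag1Ndr/Ndr replicate 1 alone at the upper left.

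The lectin pathway held 2 of the 3 members that were lower. Of its 7 members 2 fell, 0 rose and 5 did not pass, where 2.9% of all genes tested fell and 4.73% rose. Negative log2 fold changes were found for 6 of the 7, and for 6836 of all 13819 genes tested. The pathway's median was -0.39, between -0.64 and -0.31 in the alternative fits. Masp2, the protease that cuts C4 and C2 in this pathway (GRCm38 chromosome 4, positions 148594622 to 148615499), measured 142, 164 and 171 CPM in Jag1+/+ and 90.7, 94.9 and 99.0 CPM in Jag1Ndr/Ndr libraries. Every Jag1Ndr/Ndr library lay below every Jag1+/+ library, and Masp2 fell 1.68-fold (log2 fold change -0.75 ± 0.15, edgeR adjusted p = 0.0235). Masp2 shares 3118 bases with Tardbp, and reads in the shared stretch may belong to either gene, since strand was not recorded. Tardbp itself measured 84.0 ± 3.62 and 75.3 ± 10.5 CPM and did not pass, at a log2 fold change of -0.16 ± 0.15.

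Mbl1, a mannose-binding lectin (chromosome 14, positions 41151456 to 41163904), measured 128, 127 and 144 CPM in Jag1+/+ and 88.3, 80.2 and 75.1 CPM in Jag1Ndr/Ndr libraries. The groups lay clearly apart, a 1.64-fold fall (log2 fold change -0.71 ± 0.15, edgeR adjusted p = 0.0254). Masp2 and Mbl1 lost their calls without any 1 of the Jag1+/+ libraries (edgeR adjusted p from 0.0617 to 0.136), with sex as a covariate (0.0666 for Masp2 and 0.0655 for Mbl1) and with library totals in place of TMM (0.0990 and 0.0734). Their log2 fold changes stayed between -0.83 and -0.69 for Masp2 and between -0.75 and -0.66 for Mbl1 without a Jag1+/+ library, and were -0.72 and -0.67 with sex as a covariate. Mbl1 also lost its call without Jag1Ndr/Ndr replicate 3 (edgeR adjusted p = 0.0721). Markers of hepatocytes, the main source of both, summed to 218596, 221074 and 213099 CPM in Jag1+/+ and 181455, 101541 and 117877 CPM in Jag1Ndr/Ndr libraries, with 1 of 6, Ttr, lower, none higher and none at 0. Alb made up most of each sum and did not pass (edgeR adjusted p = 0.214). Of the 6 log2 fold changes 5 were negative, and that of Hnf4a was 0.08. The part of hepatocytes in the falls of Masp2, Mbl1 and C8g was not tested. In the deposited RPKM neither Masp2 nor Mbl1 passed, with log2 fold changes of -0.50 for Masp2 and -0.47 for Mbl1 (limma adjusted p = 0.479 and 0.510).

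The other members of the lectin pathway did not pass. Mbl2, the paralog of Mbl1 and the more abundant of the pair per length, measured 476, 489 and 563 CPM in Jag1+/+ and 485, 165 and 516 CPM in Jag1Ndr/Ndr libraries. A low value in Jag1Ndr/Ndr replicate 2 alone set that group apart, and the log2 fold change of -0.39 ± 0.38 became -0.02 without it. Masp1, which activates MASP-2, measured 81.4, 146 and 137 CPM against 47.1, 89.4 and 84.0 CPM, a log2 fold change of -0.73 ± 0.30 as large as that of Masp2 but with overlapping groups (edgeR adjusted p = 0.193). Masp1 passed in the fit with the replicate number as a block (edgeR adjusted p = 0.0207). The collectins Colec10 and Colec11 had log2 fold changes of -0.36 ± 0.22 and -0.14 ± 0.14, and the latter turned to 0.10 in the deposited RPKM. Colec10 was lowest in Jag1Ndr/Ndr replicate 1, at 44.9 CPM against 77.9 and 78.1 CPM in replicates 2 and 3. In mouse liver Colec10 is known from stellate cells, and the stellate cell marker Reln fell from 197 ± 9.15 to 113 ± 22.7 CPM (edgeR adjusted p = 0.0361), the only 1 of 7 stellate cell and fibroblast markers called. Of the 7, 4 had positive log2 fold changes, and Dcn, Des and Col1a1 were higher in every Jag1Ndr/Ndr library than in any Jag1+/+ library without passing. The list summed to 948 ± 58.5 and 893 ± 203 CPM. The part of these cells in the Colec10 values was not tested. Ficolin A (Fcna), the 1 member of the pathway with a positive fold change, measured 77.7, 83.5 and 58.0 CPM against 123, 107 and 89.4 CPM (0.54 ± 0.19 as log2 fold change, edgeR adjusted p = 0.137).

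The terminal pathway held the largest fall of any tested member. C8g encodes the gamma chain of C8, a small lipocalin tied to the pore-forming alpha chain (GRCm38 chromosome 2, positions 25498650 to 25501777). It measured 209, 191 and 226 CPM in Jag1+/+ and 87.5, 42.7 and 59.1 CPM in Jag1Ndr/Ndr libraries. The groups were far apart, and C8g fell 3.32-fold (log2 fold change -1.73 ± 0.26, edgeR adjusted p = 0.00883). The call held in all 15 alternative fits, with log2 fold changes from -2.05 to -1.50 and a largest adjusted p of 0.0414. The genes of the other chains, C8a and C8b, measured 287 ± 16.5 and 136 ± 10.6 CPM in Jag1+/+ and 293 ± 45.4 and 132 ± 30.5 CPM in Jag1Ndr/Ndr livers. Their log2 fold changes were 0.03, with a 95% interval from -0.38 to 0.44, and -0.05, with an interval from -0.50 to 0.40. The sign of both turned in some alternatives.

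Since the chains assemble into a single protein, C8g was also set against C8a within each library, a comparison chosen after the values were seen. The ratio of the deposited RPKM of C8g to that of C8a was 3.31, 2.70 and 3.55 in Jag1+/+ and 1.55, 0.597 and 0.774 in Jag1Ndr/Ndr libraries. It was 3.27 times as high in Jag1+/+ livers, without overlap (two-sided exact permutation p = 0.1, the smallest that 3 libraries against 3 allow). Against C8b the mean ratio went from 4.18 ± 0.103 to 1.32 ± 0.510 (two-sided exact permutation p = 0.1), while C8a to C8b stood at 1.33 ± 0.183 and 1.43 ± 0.349 (exact permutation p = 0.6). Such a ratio does not depend on the scaling between libraries. C8g shares 1028 bases with Fbxw5 and C8a shares 41187 with Fyb2, so some reads there may belong to the neighbour. Fbxw5 measured 44.9 ± 4.22 and 47.2 ± 12.9 CPM, a log2 fold change of 0.06 ± 0.20.

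**Figure D4:**
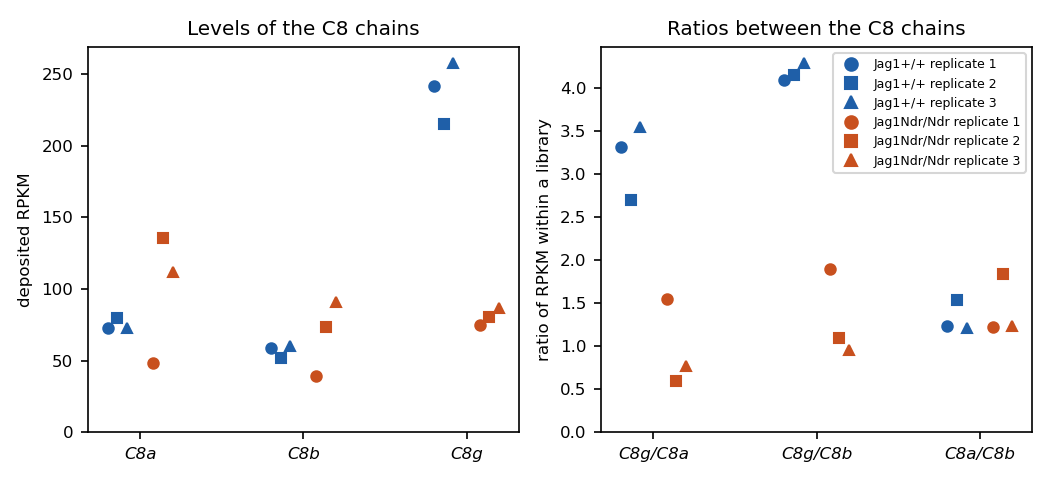
Deposited RPKM of the 3 genes of the C8 protein (left) and the ratios between them within each library (right), with Jag1+/+ libraries in blue and Jag1Ndr/Ndr libraries in orange. C8g and its ratios to C8a and C8b separate the genotypes, and the ratio of C8a to C8b does not.

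The remaining terminal components did not pass. C6, which joins C5b at the start of the pore, measured 19.1, 15.4 and 9.97 CPM in Jag1+/+ and 37.7, 19.5 and 42.0 CPM in Jag1Ndr/Ndr libraries. The highest Jag1+/+ and the lowest Jag1Ndr/Ndr value nearly touched, and the log2 fold change of 1.16 ± 0.33 missed the threshold (edgeR adjusted p = 0.0709), though it passed by DESeq2 (adjusted p = 0.00827), without a filter and without Jag1Ndr/Ndr replicate 2. C9, the chain that closes the pore, ranged from 113 to 162 CPM in Jag1+/+ and measured 55.8, 30.2 and 199 CPM in Jag1Ndr/Ndr replicates 1, 2 and 3. Its log2 fold change of -0.46 ± 0.59 became -1.60 without Jag1Ndr/Ndr replicate 3 (edgeR adjusted p = 0.0325), so this 1 library decided its call. C5, from the gene Hc, measured 970.1 ± 97.5 and 859.8 ± 68.4 CPM, a log2 fold change of -0.17 that turned to 0.07 in the deposited RPKM. C7 had between 1 and 3 reads in each of the 6 libraries. Over the 6 tested members of the pathway 1 fell, beside 2.9% of all genes tested. The members' median of -0.11 turned to 0.12 in the deposited RPKM.

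The upstream sequences of the members that fell are shown because these 3 genes carry the downward calls. They are the 250 bases before each start listed by RefSeq on GRCm38.p6, 5′ to 3′ on the gene's strand, with capitals for any match to the motifs named after them. C8g has an upstream start (chr2:25501720-25501969, minus strand) and a downstream start (chr2:25500507-25500756, minus strand). The sequence of Masp2 is chr4:148602294-148602543 and that of Mbl1 is chr14:41151206-41151455, both on the plus strand. The Masp2 window lies inside the gene span given above, which begins further upstream, and it precedes a listed start within that span. The downstream window of C8g likewise lies inside the C8g gene span given above, and its upstream window lies partly inside it.
C8g, upstream start: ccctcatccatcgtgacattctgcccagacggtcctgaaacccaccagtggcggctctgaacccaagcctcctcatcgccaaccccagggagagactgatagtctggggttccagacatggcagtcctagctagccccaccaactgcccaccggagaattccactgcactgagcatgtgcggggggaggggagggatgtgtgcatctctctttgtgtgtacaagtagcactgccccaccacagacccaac
C8g, downstream start: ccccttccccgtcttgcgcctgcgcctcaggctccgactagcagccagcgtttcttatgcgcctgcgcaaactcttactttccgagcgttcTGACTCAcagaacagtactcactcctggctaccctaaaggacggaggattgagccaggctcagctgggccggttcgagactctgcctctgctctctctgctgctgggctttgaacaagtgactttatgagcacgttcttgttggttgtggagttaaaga
Masp2: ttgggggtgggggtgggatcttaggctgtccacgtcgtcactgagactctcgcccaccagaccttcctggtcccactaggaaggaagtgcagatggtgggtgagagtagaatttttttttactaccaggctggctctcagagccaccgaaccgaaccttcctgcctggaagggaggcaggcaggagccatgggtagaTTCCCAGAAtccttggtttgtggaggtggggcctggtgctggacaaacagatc
Mbl1: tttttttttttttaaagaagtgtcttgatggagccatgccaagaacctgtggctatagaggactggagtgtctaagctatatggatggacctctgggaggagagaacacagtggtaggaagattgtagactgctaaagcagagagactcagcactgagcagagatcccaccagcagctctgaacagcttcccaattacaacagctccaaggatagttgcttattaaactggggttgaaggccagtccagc

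On both strands, letters of motifs known from acute phase and liver promoters were searched in 32851 such windows, of which 27 belonged to 26 members. A STAT motif (TTCNNNGAA) stood in Masp2, from base -53 to -45 before its start, and in C7, C8a and Colec11, against 7.02% of all windows. An AP-1 motif (TGANTCA) stood at the downstream start of C8g, from base -159 to -153, and in C3ar1, against 6.75% of all windows. The C/EBP motif TTGCNNAA was in C3 and C9 (9.56% of all windows), and the NF-kB motif in 10 members (45.8%). The HNF1 motif stood in C4bp (0.0548% of all windows) and the TATA box TATAAA in 4 members (12.4%). The HNF4 motif CAAAGTCCA and the heat shock element matched no member's window (0.384% and 0.466% of all). The matches shown in capitals overlap no other motif searched, and a match describes letters only.

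Among the regulators Clu rose, where 4.73% of all genes tested did, and the other 6 did not pass. Clu encodes clusterin, a secreted chaperone that blocks the assembly of the membrane pore (GRCm38 chromosome 14, positions 65968483 to 65981548). It measured 1122, 946 and 969 CPM in Jag1+/+ and 3792, 2839 and 7122 CPM in Jag1Ndr/Ndr libraries. Every Jag1Ndr/Ndr library was above every Jag1+/+ library, with replicate 3 the highest, and Clu rose 4.53-fold (log2 fold change 2.18 ± 0.35, edgeR adjusted p = 0.0103). The adjusted p was 0.0539, 0.0575 and 0.0559 without Jag1+/+ replicates 1, 2 and 3, where the fold change stayed between 2.13 and 2.26 on the log2 scale, and without Jag1Ndr/Ndr replicate 3 the log2 fold change was 1.72. Clu also took a larger part of the members' reads, 3.40% to 4.98% in Jag1+/+ and 9.03% to 20.2% in Jag1Ndr/Ndr libraries.

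Clusterin is also made by bile duct epithelium, so markers of that tissue were set beside it. Of 7 cholangiocyte markers 2, Cldn4 and Cldn7, were higher and 0 lower, and none was at 0. Their summed level was 107, 99.5 and 61.2 CPM in Jag1+/+ and 52.9, 42.9 and 139 CPM in Jag1Ndr/Ndr libraries. Spp1 made up most of that sum in the Jag1+/+ libraries, at 52.7 to 89.8 CPM, and measured 18.3, 22.0 and 85.9 CPM in Jag1Ndr/Ndr libraries. The other 6 markers, summed after these values were seen, gave 17.6, 16.7 and 8.45 CPM in Jag1+/+ and 34.6, 20.9 and 53.1 CPM in Jag1Ndr/Ndr libraries. The groups thus overlapped with Spp1 and lay apart without it. Of these 6, only Cldn4 and Cldn7 separated the genotypes singly, at log2 fold changes of 4.17 and 3.82. Krt7, Krt19, Epcam and Sox9 overlapped, at 0.55, 0.56, -0.22 and -0.53, and did not pass. The part of bile duct cells in the Clu values was not tested. Vtn, which blocks the same pore, measured 3037, 3144 and 3151 CPM in Jag1+/+ and 3336, 2314 and 3029 CPM in Jag1Ndr/Ndr libraries, with a log2 fold change of -0.10 ± 0.21 that turned to 0.12 in the deposited RPKM.

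The remaining regulators fell on both sides of 0 without passing. C4bp, a plasma cofactor that inactivates C4b, measured 289, 229.5 and 259 CPM in Jag1+/+ and 392, 317 and 425 CPM in Jag1Ndr/Ndr libraries, without overlap (log2 fold change 0.54 ± 0.19, edgeR adjusted p = 0.124, DESeq2 adjusted p = 0.0366). Cfi, the protease that cuts C3b and C4b with the help of such cofactors, had Jag1Ndr/Ndr values of 979, 780.1 and 881 CPM, all under its Jag1+/+ values of 1060.2, 1001 and 1007 CPM. Its log2 fold change of -0.22 ± 0.18 (edgeR adjusted p = 0.545) turned to 0.02 in the deposited RPKM. The membrane-bound inhibitors Cd55, Cd59a and Cr1l, which shield the body's own cells, had log2 fold changes of 0.30 ± 0.18, -0.27 ± 0.18 and 0.01 ± 0.16. Their levels were low, from 16.0 to 44.3 CPM over all libraries, and the genotypes overlapped for each.

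Of the 4 receptors 1 rose, beside 4.73% of all genes tested. The other 3 receptors had positive fold changes short of the threshold, and the list's median was 1.06 on the log2 scale. C5ar1, the receptor of the anaphylatoxin C5a on neutrophils and macrophages (chromosome 7, positions 16246743 to 16259540), measured 4.17, 4.32 and 3.80 CPM in Jag1+/+ and 7.89, 11.1 and 9.07 CPM in Jag1Ndr/Ndr libraries. The groups did not overlap, and C5ar1 rose 2.30-fold (log2 fold change 1.20 ± 0.21, edgeR adjusted p = 0.0141). Its adjusted p was 0.0653, 0.0637 and 0.0738 without Jag1+/+ replicates 1, 2 and 3, and 0.165 by limma on the deposited RPKM. The log2 fold change stayed between 1.01 and 1.35 over all 15 alternatives, those without a library included. C3ar1, the receptor of C3a, measured 6.49 ± 1.80 and 7.21 ± 0.350 CPM, a log2 fold change of 0.16 with a 95% interval from -0.41 to 0.72. Whether C5ar1 and C3ar1 differ in their response was not tested.

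Itgam and Itgb2 encode the chains of complement receptor CR3, through which phagocytes take up particles coated with C3 fragments. Itgam measured 13.6 ± 0.958 CPM (SD, n = 3) in Jag1+/+ and 13.9, 52.0 and 31.5 CPM in Jag1Ndr/Ndr replicates 1, 2 and 3. Replicate 1 lay among the Jag1+/+ values, and the log2 fold change of 1.27 ± 0.40 (edgeR adjusted p = 0.0950) became 1.62 without it, which passed (edgeR adjusted p = 0.0103), and 0.75 without replicate 2. Itgb2 measured 26.5, 28.0 and 21.4 CPM against 34.2, 67.5 and 40.2 CPM, without overlap (log2 fold change 0.91 ± 0.26, edgeR adjusted p = 0.0709). Itgb2 passed by DESeq2, without a filter, with the replicate number as a block and without Jag1Ndr/Ndr replicate 1 (adjusted p from 0.0126 to 0.0497).

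Marker lists of myeloid cells, some of which carry these receptors, were set beside them. Of 11 neutrophil markers 6 were higher and 0 lower, and their summed level was 769, 652 and 647 CPM in Jag1+/+ and 1086, 2412 and 1572 CPM in Jag1Ndr/Ndr replicates 1, 2 and 3. That order, with replicate 2 highest and replicate 1 lowest among the Jag1Ndr/Ndr libraries, was also the order of C5ar1, Itgam and Itgb2. It was not that of C3ar1, at 7.18, 6.87 and 7.57 CPM in Jag1Ndr/Ndr replicates 1, 2 and 3. Summed B cell markers (14.5, 46.4 and 28.2 CPM) and T and NK cell markers (8.33, 15.5 and 9.60 CPM) had the order of the neutrophil sum. Reads per library had it too, so the order was not particular to neutrophil markers. Among the Jag1+/+ libraries the neutrophil sum was highest in replicate 1, but C5ar1, Itgam and Itgb2 were highest in replicate 2. Of 8 markers of monocytes and recruited macrophages, a list that includes Ccr2, Trem2 and Gpnmb, 5 were higher and 0 lower. They summed to 116 to 158 CPM in Jag1+/+ and to 419.5, 379 and 267 CPM in Jag1Ndr/Ndr replicates 1, 2 and 3. In that list replicate 1 was thus the highest. Of 8 Kupffer cell markers 0 were called (3 at an unadjusted p under 0.05), with sums of 1515, 1385 and 1021 CPM in Jag1+/+ and 2513, 1628 and 1629 CPM in Jag1Ndr/Ndr libraries. Singly, Marco and Cd5l were higher in every Jag1Ndr/Ndr library, Slc40a1 was lower in every one, and the rest overlapped. Marco went from 155 ± 76.2 to 558 ± 336 CPM, and Slc40a1 from 417 ± 20.2 to 283 ± 24.1 CPM. C1qa, C1qb, C1qc and Cfp shared the place of the Kupffer sums, with Jag1Ndr/Ndr replicate 1 the highest and Jag1+/+ replicate 3 the lowest of all 6 libraries. The monocyte and macrophage sum (419.5 and 116 CPM) and the erythroid sum (444 and 109 CPM) had the same highest and lowest libraries. That place was thus not particular to Kupffer cell markers. No marker of the neutrophil, monocyte and macrophage or Kupffer cell lists was at 0 in any library. The part of cell numbers in the values of these members was not tested. Of the remaining lists, Cd79b of 6 B cell markers was lower, 2 of 4 erythroid markers were higher, and 0 of 6 sinusoidal endothelial, 0 of 5 mesothelial and 0 of 6 T and NK cell markers were called (0, 1 and 1 at an unadjusted p under 0.05).

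**Figure D5:**
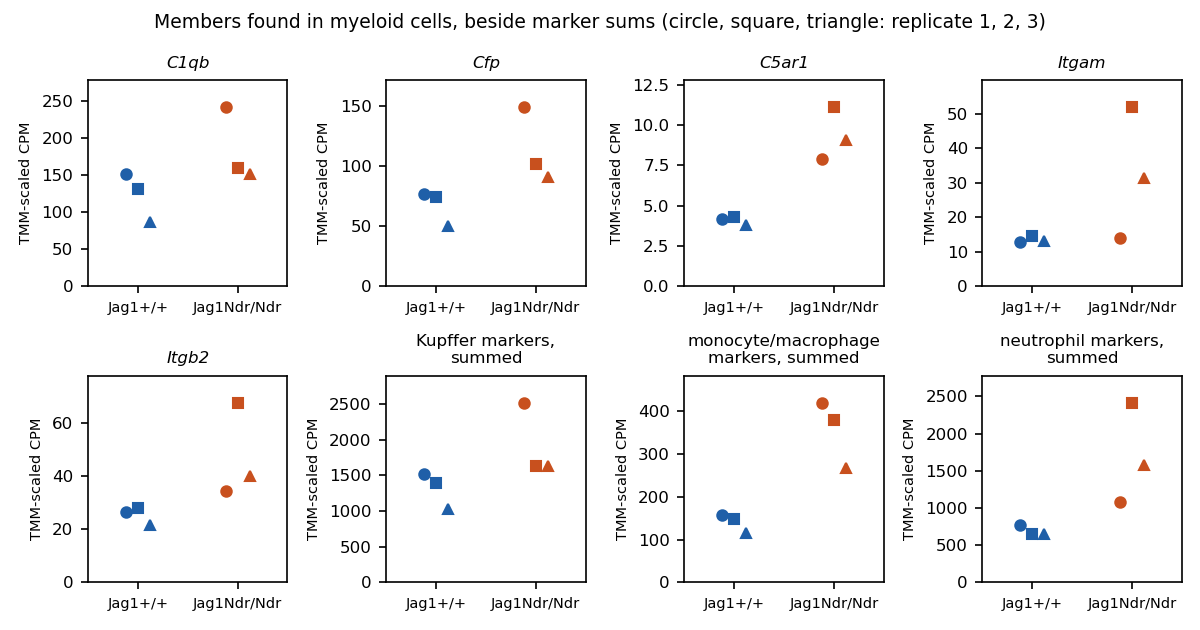
TMM-scaled CPM of 5 members known from myeloid cells and the summed CPM of 3 marker lists in each library, on linear axes from 0. Circles, squares and triangles are replicates 1, 2 and 3, with Jag1+/+ in blue and Jag1Ndr/Ndr in orange. C1qb and Cfp are highest in Jag1Ndr/Ndr replicate 1, as are the Kupffer sum and the monocyte and macrophage sum. C5ar1, Itgam and Itgb2 are highest in Jag1Ndr/Ndr replicate 2, as is the neutrophil sum.

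Beyond the 35 members, a further 25 complement genes were listed, of which 23 were tested. Of these 1 rose and 0 fell, or 4.35% against 7.63% of all genes, with a median log2 fold change of -0.13. The gene that rose was Serping1, which encodes the C1 inhibitor that stops C1r, C1s and the MASP proteases. It measured 473, 480.4 and 436 CPM in Jag1+/+ and 891, 729 and 716 CPM in Jag1Ndr/Ndr libraries. The groups lay apart, and Serping1 rose 1.68-fold (log2 fold change 0.75 ± 0.18, edgeR adjusted p = 0.0409). The call was lost in 7 of the 15 alternative fits, among them those without any 1 of the Jag1+/+ libraries (edgeR adjusted p from 0.138 to 0.217), without Jag1Ndr/Ndr replicate 3 and with sex as a covariate. C1s1, the protease it inhibits beside C1r, measured 358 ± 60.7 and 350.4 ± 21.4 CPM, a log2 fold change of -0.03 ± 0.18.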

How the data were processed

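RNA-seq of 6 liver libraries was used. The authors' deposited table gives whole read counts per RefSeq gene entry without normalization, and RPKM together with a TMM factor per library, per the file header. The RPKM had been multiplied by that factor: relative to Jag1+/+ replicate 1, Jag1Ndr/Ndr replicate 2 had a factor of 1.36 and an observed scaling of 1.36. STAR and the mouse genome mm10 are named in the submitters' processing notes, while the tool that counted reads is not given in the sources used. The kit named in the labels does not mark strand.

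Genotypes were taken from the sample titles. The members, the lists and the named genes (all members, with every value for those called or highest in their role, and called genes of the further list) were chosen with earlier results of these data known. After 93 spike-in and reporter entries with 5 reads were left out, 13819 of 24489 entries passed edgeR's filterByExpr. The deposited counts, with TMM factors computed anew, went into the quasi-likelihood F test of edgeR 4.0.16 (R 4.3.3, with limma 3.58.1 and DESeq2 1.42.0 as alternatives) at an adjusted p of 0.05. A standard error is the size of the log2 fold change divided by the square root of F. Of 103 further symbols 3 matched by an older symbol and 3 had no match. Values of some genes of the further list are not reported here. No libraries of a genotype agreed within sampling noise (chi-square per degree of freedom from 21.9 to 126). On simulated counts for the 13819 genes of this comparison the test recovered 35 of 100 changes of 2-fold and 92 of 100 of 4-fold, with 10 false calls. Alternatives were another test, scaling, filter or unit, pseudocounts of 1 and 0.1, a replicate block, sex as a covariate and leaving out each library.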

Additional observations from a re-analysis of the deposited data

How the results depend on the processing

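Of the 33 tested members 24 kept the sign of their fold change in all 15 alternatives, and 9, all without a call, did not. With 2 members higher and 3 lower as reported, DESeq2 gave 7 higher, no filter 4 and the replicate block 4, and limma on the deposited RPKM 1 higher and 1 lower with either pseudocount. Library totals without TMM and sex as a covariate left 1 lower. Leaving out a library gave 0 to 4 higher and 1 to 3 lower. For the further complement genes, 1 higher and 0 lower as reported, the number higher was 0 with no filter, with the replicate block and with sex as a covariate, and the number lower 1 by DESeq2, 1 with no filter and 2 with the block. Leaving out a library gave 0 to 1 higher and 0 to 1 lower. Over all genes, 653 higher and 401 lower as reported, DESeq2 gave 1137 and 753, limma on the deposited RPKM 388 and 101 (pseudocount 1) or 427 and 117 (pseudocount 0.1), sex as a covariate 366 and 230, and library totals 210 lower. Leaving out a library gave 155 to 679 higher and 127 to 532 lower. Library totals and the deposited RPKM shifted the median of all genes by 0.13 and 0.21 to 0.22 on the log2 scale, and higher genes made up 74.3% and 78.5% to 79.3% of calls there, against 62% as reported. The causes were not tested.

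Same-numbered libraries of the genotypes correlated in their deviations from the genotype means at 0.0856, 0.170 and 0.195, and each library correlated best with its own number, a hint from the data and not the design. The first value is under 0.1, so the numbers were not taken as pairs. The replicate block moved the members called from 5 to 8 by adding Cfp, Itgb2 and Masp1. With 3 libraries per genotype, changes of 2-fold are often missed, so a gene that did not pass is not shown to be unchanged.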

Other observations

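Some complement genes outside the 35 members differed more between libraries than between genotypes. C1rb and C1s2, close copies of C1ra and C1s1 on chromosome 6 (GRCm38 positions 124570430 to 124581044 and 124624625 to 124636085), had 276, 389 and 9 and 509, 817 and 13 reads in Jag1+/+ replicates 1, 2 and 3. In Jag1Ndr/Ndr replicates 1, 2 and 3 they had 214, 9 and 130 and 303, 12 and 246 reads. Both genes were thus near 0 in the same pair of libraries, Jag1+/+ replicate 3 and Jag1Ndr/Ndr replicate 2, which do not share a number. C1ra, by contrast, stayed between 117 and 136 CPM in all 6 libraries. These libraries are not the pair that was low in C4b.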
